A study of Homo sapiens with 9 samples.

Results

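A549 is a lung adenocarcinoma cell line with no ALK rearrangement of its own. RNA from A549 cells in which the LOC388942-ALK (LA) fusion had been made was compared with RNA from parental A549 cells. These 4 libraries, 2 of LA cells (genotype label sgLOC388942; sgALK) and 2 of control cells (genotype label WT), were chosen by their labels from the 9 libraries of the series, and all genes were analysed. Of 26364 genes counted, 14425 had enough reads to be tested. The other 5 libraries, labelled as LA cells that had also received a guide against FOS (sgFOS, 2 libraries) or a scramble guide (sgScr, 3 libraries), are used only where their values bear on the LA group.

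The LA cells were made from A549 cells with Cas9 that were infected with a lentivirus carrying the guides, and the methods describe monoclonal lines grown from single cells, so that the LA group is a clonal derivative set against a parental population. All 4 libraries share the cell line and culture medium, and the controls are labelled wild type with no Cas9 or control guide named. The labels do not say whether replicates came from separate cultures, so p-values here measure only the spread between these samples.

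ALK is a receptor tyrosine kinase of the developing nervous system that most adult tissues, the lung included, do not express. In lung cancer, rearrangements place its kinase domain behind the promoter of another locus, and the kinase then signals through RAS to ERK, through PI3K to AKT and through STAT3. ERK output is read from its negative feedback genes, among them the dual-specificity phosphatases (DUSP), the Sprouty and SPRED inhibitors and the ETV transcription factors. A549 cells also have high NRF2 activity through loss of KEAP1.

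The fusion was made by cutting 2 sites on chromosome 2. The guides designed for this are shown because they define what the LA label means. Each is written 5′ to 3′ on its own strand, and capitals mark the PAM read from the genome.
ALK-gRNA-1: gaccgaccgtgatcagattAGG
ALK-gRNA-2: ttcaattcattcgatcctcAGG
LOC388942-gRNA-3: tgcaatcttagatgtctgcAGG
On GRCh37 the 19 guide bases matched at chr2:29447518-29447536 (plus strand) for ALK-gRNA-1 and at chr2:29447547-29447565 (minus strand) for ALK-gRNA-2, both in an intron of ALK. LOC388942-gRNA-3 matched at chr2:41492563-41492581 (minus strand), in no annotated gene.

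Reads assigned to ALK itself numbered 0 and 0 in the control libraries and 2 and 15 in LA replicates 1 and 2. LOC388942 had 8 and 2 counts in control and 0 and 1 in LA. Both genes were too low to be tested, and the 2 counts in LA replicate 1 cannot be told from 0 at this depth. In the sgScr libraries ALK had 4, 1 and 3 counts, and in the sgFOS libraries 2 and 0.

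One set of genes separated the LA libraries from every other library, including those labelled as LA cells with a second guide. The 14 listed Y-linked genes had 8074 and 6269 counts together in control, 2 and 1 in LA, 6651, 6296 and 5209 in sgScr, and 4190 and 4388 in sgFOS. Both LA libraries thus lacked Y-linked reads that the libraries labelled as their derivatives contained, and all 12 Y-linked genes with enough reads were lower in LA. What this says about the line behind each label was not tested. Results below are given for the LA libraries as labelled. The sgScr values of some leading genes, which do not all share the LA level, are given at the end.

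Other identity genes gave mixed readings. CDKN2A and CDKN2B, which A549 cells have lost, had 0 counts in all 4 libraries, while MTAP, their neighbor on chromosome 9 and the third gene of that list, was read in all 4, with 149 and 165 counts in control and 269 and 263 in LA. KRT8, an epithelial keratin, had 158979 and 108303 counts in control and 58254 and 122975 in LA. NKX2-1, a lung lineage factor, was near 0 in all 4 libraries, with 1 count in control replicate 2, and the surfactant genes SFTPA1, SFTPB, SFTPC and SFTPD had at most 6 counts in any library. The leukocyte genes PTPRC, CD3D, CD3E and MS4A1 were at 0, while the 10 leukocyte markers summed to 75.4 and 55.6 CPM (counts scaled to library size) in control and 40.6 and 42.1 in LA, nearly all of it from CD14, which was called lower, and CD68. The 8 endothelial markers summed to 0.688 and 0.412 CPM in control and 0.301 and 1.49 in LA. The 10 fibroblast markers summed to 26 and 15.6 CPM in control and 21.6 and 20.3 in LA, with COL1A2, FAP and POSTN at 0, and none of the 10 was called.

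Total counts were 19375358 and 17189253 in control and 15239641 and 16700440 in LA. With edgeR's quasi-likelihood test at a Benjamini-Hochberg adjusted p under 0.05, 1380 genes (9.57% of those tested) were higher in LA and 1434 (9.94%) were lower. Control and LA values did not overlap for 4716 genes on the higher side (32.7%) and 4463 on the lower side (30.9%). The balance of the calls depended on the scaling. With library size alone in place of TMM normalization, which moves the median log2 fold change of all genes by 0.288, 1599 genes were higher and 680 lower, or 70.2% higher against 49.0%. Leaving 1 library out takes the spread from the pair of the other group, so a lost call need not mean a lost difference. Every library moved the counts of higher and lower genes by more than 1.5 times when it was left out. They were 669 higher and 636 lower without control replicate 1, 2383 and 2695 without control replicate 2, 337 and 95 without LA replicate 1, and 185 and 68 without LA replicate 2.

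Transcript length ran through the whole comparison. Across the 14145 tested genes with an annotated length, the log2 fold change rose with the length of the longest transcript (Spearman 0.517, a description across genes, which are not independent replicates) and with that of the canonical transcript (0.584). It was related less closely to exon number (0.314) and to GC content (-0.293). Genes were then split by length into 10 bins of equal size. In the bin with the shortest transcripts, with a median of 1075 bp, the median log2 fold change was -1.15 and 38.2% of genes were called lower. In the bin with the longest, with a median of 9768 bp, it was 1.00 and 36.0% were called higher.

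**Figure D1:**
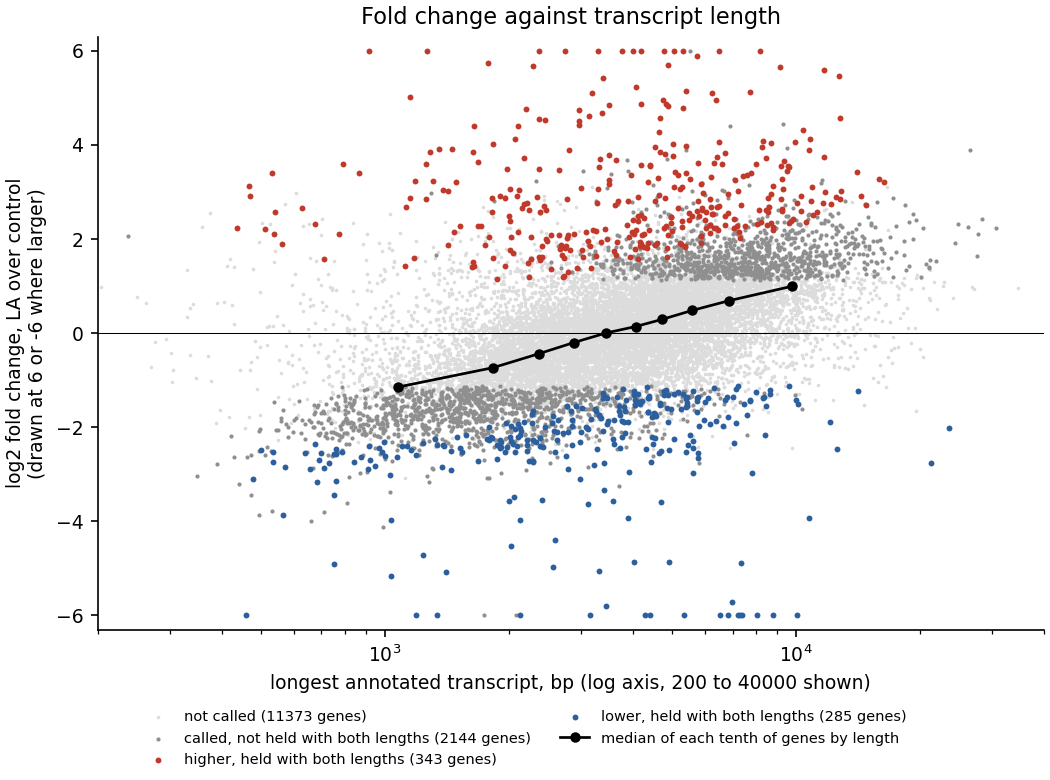
Log2 fold change of LA over control (y axis) against the length of the longest annotated transcript in bp (x axis, log scale), 1 point per tested gene with a length, with changes beyond 6 drawn at 6 or -6. Light gray points are genes not called, dark gray points are calls that did not hold with both lengths, red and blue points are the 343 higher and 285 lower genes that held with both length measures, and the black line joins the median of each of 10 bins of genes by length, which climbs from -1.15 to 1.00.

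The trend was not a difference between the groups alone. Relative to the mean of the 4 libraries, genes of the shortest bin had median deviations of 0.76 and 0.25 (log2 CPM) in control replicates 1 and 2 and of -0.51 and -0.49 in LA. For the longest bin the deviations were -0.63 and -0.31 in control and 0.50 and 0.47 in LA. The 2 LA libraries lay close together, while the control libraries were apart along the length axis, with a Spearman correlation of -0.306 between their difference and length against 0.040 for the LA pair. Control replicate 1 also had the lowest TMM factor (0.826, against 0.988, 1.09 and 1.12 in control replicate 2 and LA replicates 1 and 2) and the largest share of counts in its 10 top genes (8.69%, against 7.89%, 5.03% and 6.40%). Whether RNA quality, library preparation or the cells set this trend was not tested.

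**Figure D2:**
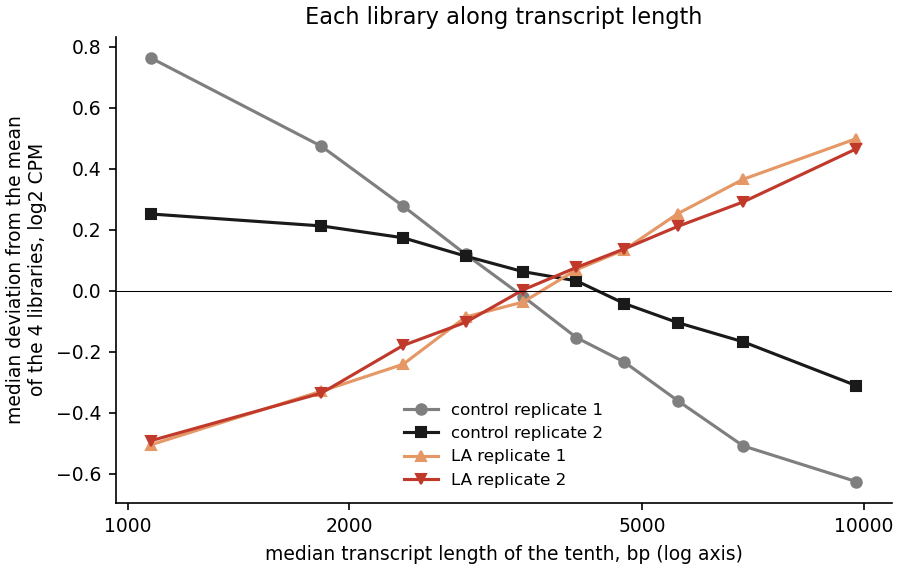
Median deviation of each library from the mean of the 4 libraries in log2 CPM (y axis) by bin of transcript length (x axis, median bp of the bin, log scale), 1 line per library. Both control lines fall and both LA lines rise with length, with control replicate 1 the steepest, from 0.76 to -0.63.

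Changes were therefore read against genes of similar length. The length-relative difference of a gene is its log2 fold change minus the median of the 200 tested genes nearest to it in transcript length. A call was said to hold when the gene was called in the same direction again after a smooth curve of length, fitted in each library, had been entered as an offset. By this measure 424 genes held as higher (3% of those with a length) and 498 as lower (3.52%). The annotated longest transcript of a short gene can be a rare long isoform, so the same was done with the canonical transcript, a choice made after seeing the data. With both lengths 343 genes held as higher (2.42%) and 285 as lower (2.01%), and "held" below means held with both unless 1 is named. Counts in gene lists below are to be read against these shares and against the 9.57% called higher and 9.94% called lower over all genes.

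By the design of the offset, holding removed long genes from the higher calls and short genes from the lower ones. The median longest transcript was 6807 bp over all higher genes and 7811 bp over the 956 that did not hold by the longest transcript, against 4324 bp over the 424 that did and 3741 bp over all genes tested. Lower genes had a median of 1772 bp, the 936 that did not hold by the longest transcript 1490 bp, and the 498 that did 3307 bp. The genes that held by both lengths had a median of 2.7 on the log2 scale for higher and -2.25 for lower genes. Over all calls it was 1.73 and -1.70, but having to pass further tests selects larger changes. Control and LA values did not overlap for 340 of the 343 and for all 285. The same was so for 1374 of all 1380 higher and 1432 of all 1434 lower calls, so this does not set the held genes apart. Adding GC content to the curve kept 336 of the 343 and 275 of the 285 as calls.

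The protein-coding genes that stood furthest above genes of like length came from many functions, and all of the 12 named by rule except CTGF and HIF1A were under 5 CPM in both control libraries. NCR3LG1, which encodes the ligand B7-H6 of the natural killer cell receptor NKp30, had 0.438 and 0.412 CPM in control and 13.3 and 13.6 in LA. PRKAR2A, a regulatory subunit of protein kinase A, had 0.688 and 3.12 CPM in control and 34.8 and 29.4 in LA. PTPRD, a receptor tyrosine phosphatase, had 2.13 and 0.883 CPM in control and 25.6 and 34.6 in LA. All 3 were thus raised from a few CPM or less to at least 13 CPM in both LA libraries. Their log2 fold changes were 4.96 (standard error 0.629, adjusted p = 2.79e-05), 4.06 (0.581, 0.000130) and 4.32 (0.547, 2.79e-05), which was 4.31, 3.46 and 3.33 above genes of like length.

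Channels and receptors usually studied in excitable cells were among them. KCNJ2, the inward rectifier potassium channel Kir2.1, had 1.00 and 2.18 CPM in control and 9.87 and 40.4 in LA, with LA replicate 2 about 4 times LA replicate 1 and both above control (log2 fold change 3.97, adjusted p = 0.000413). Its neighbor on chromosome 17, the channel subunit gene KCNJ16, went from 0.438 and 0.707 CPM to 6.80 and 7.03 (3.57, adjusted p = 0.00151). GRIK2, a kainate-type glutamate receptor subunit, had 0.563 and 1.59 CPM in control and 21.7 and 9.11 in LA (3.82, adjusted p = 0.000622). Of 40 potassium channel genes tested, 8 were higher and 2 lower, against 9.57% and 9.94% of all genes, and 3 higher (KCNJ2, KCNJ16 and KCNV2) and 1 lower held, against 2.42% and 2.01%. The length-relative median of the 40 was -0.12, and the higher calls became 3 without control replicate 1, 4 without LA replicate 1 and 3 without LA replicate 2.

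HIF1A, the oxygen-regulated subunit of hypoxia-inducible factor, was the most abundant gene of the group. It had 6.69 and 152 CPM in control replicates 1 and 2 and 968 and 669.8 in LA replicates 1 and 2, so that the control libraries were further apart in fold than the nearer of them and LA. On the log2 scale it was 3.37 higher in LA (standard error 0.759, adjusted p = 0.00419). The value ranged from 2.40 without control replicate 1 to 6.85 without control replicate 2, and DESeq2 did not call it. Of 21 hypoxia response genes tested, which this factor is known to raise, 2 were higher and 1 was lower, against 9.57% and 9.94% of all genes, and the only one that held, ANGPTL4, was lower. Their median log2 fold change was 0.20, against 0.04 over all genes.

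The remaining genes of the 12 were ANKRD30A, MSMP, ITGBL1, CTGF, BTBD19 and UGT1A7. ANKRD30A, known as a breast differentiation antigen, had 4.44 and 4.65 CPM in control and 71.5 and 51.4 in LA (log2 fold change 3.75). MSMP, a small secreted protein with a transcript of only 677 bp, had 2.75 and 2.71 CPM in control and 11.8 and 15.6 in LA. ITGBL1, a secreted protein with integrin-like repeats, had 1.19 and 0.589 CPM in control and 11.4 and 13.6 in LA. MSMP is the case where length hides a difference, with a log2 fold change of 2.33 that stood 3.86 above genes of its length. BTBD19 went from 1.5 and 1.06 CPM to 7.58 and 14.2, and CTGF, a matricellular protein, from 11.1 and 38.1 to 109 and 258. Without LA replicate 2, BTBD19, CTGF and MSMP were no longer called (2.12 to 2.57), while the other 9 of the 12 stayed called whichever library was left out. Exons of UGT1A7, MSMP, KCNJ2, PRKAR2A, ITGBL1, CTGF and HIF1A overlap those of other annotated genes, and their reads cannot be told apart here.

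**Figure D3:**
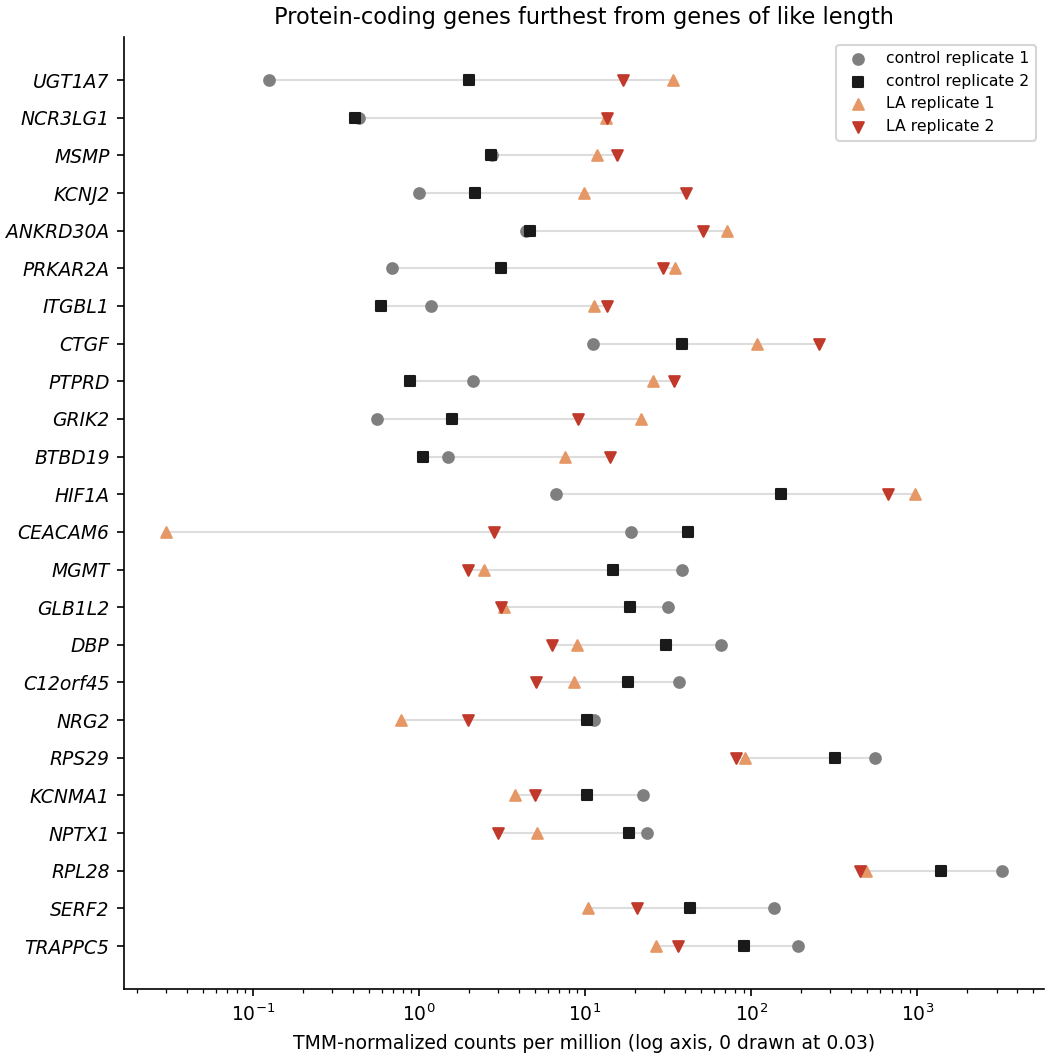
CPM after TMM normalization (x axis, log scale, 0 drawn at 0.03) of the 12 protein-coding genes furthest above and the 12 furthest below genes of like length, 1 point per library. Control and LA points are apart for every gene, and HIF1A has the widest gap between the control libraries, 6.69 and 152.

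The genes furthest below genes of like length included an adhesion protein, a DNA repair enzyme and a growth factor. CEACAM6 (chr19:42254885-42276116, GRCh37), a cell surface adhesion molecule of epithelia, had 19.0 and 41.9 CPM in control and 0 and 2.82 in LA, where replicate 1 had 0 counts. MGMT, which repairs alkylated guanine in DNA, had 38.5 and 14.7 CPM in control and 2.47 and 1.97 in LA. NRG2, an EGF family ligand, had 11.2 and 10.2 CPM in control and 0.782 and 1.97 in LA. The control values lay at least 5 times above the LA values for all 3 genes. Log2 fold changes were -4.40 (standard error 0.812, adjusted p = 0.00141), -3.58 (0.545, 0.000262) and -2.95 (0.594, 0.00230), and DESeq2 did not call CEACAM6.

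DBP, a transcription factor of the circadian clock output, had 65.8 and 30.6 CPM in control and 8.97 and 6.34 in LA. GLB1L2, a relative of beta-galactosidase, had 31.6 and 18.7 CPM in control and 3.25 and 3.14 in LA, and NPTX1, a neuronal pentraxin, had 23.6 and 18.3 in control and 5.12 and 2.98 in LA. KCNMA1, the large-conductance calcium-activated potassium channel, had 22.2 and 10.2 CPM in control and 3.79 and 5.00 in LA. Their longest transcripts (5439 to 12071 bp) are of lengths whose typical gene was higher, and their log2 fold changes were -2.65, -2.98, -2.37 and -1.88. The rest of the 12 were RPS29, RPL28, SERF2, TRAPPC5 and C12orf45, with log2 fold changes of -2.34, -2.30, -2.55, -2.16 and -2.02. RPS29, a ribosomal protein gene, has 7062 bp for the longest and 295 bp for the canonical transcript, and its length-relative difference was -3.07 by the first and -1.28 by the second. For the other 4 genes the values by the canonical transcript were between -3.19 and -2.29. Exons of CEACAM6, MGMT, NRG2, DBP, KCNMA1, RPS29, SERF2, TRAPPC5 and C12orf45 also overlap those of other annotated genes. The reads of these genes cannot be told apart here either.

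More of the lower calls than of the higher ones were lost when an LA library was left out. The spread then comes from the control pair, and the fold changes remained negative. Without LA replicate 1, 7 of the 12 were no longer called (C12orf45, KCNMA1, NRG2, RPL28, RPS29, SERF2 and TRAPPC5, at -2.46 to -1.71), and without LA replicate 2, 7 were not (C12orf45, DBP, KCNMA1, NPTX1, RPL28, RPS29 and TRAPPC5, at -2.42 to -1.68). Without control replicate 1, C12orf45 and KCNMA1 were lost (-1.44 and -1.24).

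Genes of the ERK pathway moved in part. Of 24 output and feedback genes tested, 5 were higher and none was lower, against 9.57% and 9.94% of all genes, and 3 held. Their median log2 fold change was 0.59, against 0.04 over all genes. The 5 higher calls became 1 without LA replicate 1, 1 without LA replicate 2 and 8 without control replicate 2. DUSP1, a nuclear phosphatase that switches off MAP kinases, had 65.3 and 111 CPM in control and 531 and 393 in LA (log2 fold change 2.39, standard error 0.440, adjusted p = 0.00141). DUSP5, which acts on nuclear ERK, had 48.3 and 55.1 CPM in control and 164 and 239 in LA (1.97, 0.412, 0.00278). EPHA2, an ephrin receptor kinase, had 101.5 and 122.8 CPM in control and 249.4 and 441 in LA (1.62, 0.426, 0.0105). DUSP4 and DUSP16 were called but did not hold, with log2 fold changes of 1.16 and 1.67 and length-relative differences of 0.63 and 1.12.

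Other genes read as ERK output were not among the calls. DUSP6, the cytoplasmic ERK phosphatase, had 5.94 and 10.5 CPM in control and 18.7 and 14.6 in LA (log2 fold change 1.01, adjusted p = 0.131), and SPRY2 had 6.00 and 9.19 in control and 10.4 and 21.6 in LA (1.08, 0.123). For both, the LA libraries lay above the control libraries without passing the test. ETV4, an ETS factor downstream of ERK, overlapped between groups, with 120.2 and 75.8 CPM in control and 39.9 and 84.1 in LA, and so did CCND1 (cyclin D1), with 576 and 322 in control and 474 and 468 in LA. ETV5 and MYC had log2 fold changes of 0.36 and 0.45 with adjusted p = 0.566 and 0.446. A p above the threshold does not show that these genes were equal in the 2 groups.

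In the EGF family, a receptor and a ligand were higher and another ligand was lower. EGFR (chr7:55086710-55279321) had 18.0 and 24 CPM in control and 274 and 424 in LA, and was called whichever library was left out (log2 fold change 4.06, standard error 0.463, adjusted p = 7.3e-06, 3.11 above genes of like length). TGFA, an EGFR ligand, had 4.63 and 5.36 CPM in control and 15.8 and 40.2 in LA (2.49, adjusted p = 0.00236). With NRG2, described above, these were the only calls among 14 family members tested, and all 3 held. ERBB2 and ERBB3, the receptors that partner EGFR, had log2 fold changes of 0.06 and 0.53 and were not called. The ligands EREG and NRG1 reached 1.09 and 1.13 and were not called (adjusted p = 0.0639 and 0.05001). Without LA replicate 1, DUSP1, DUSP16 and NRG2 lost their calls (-2.46 to 2.14), and without LA replicate 2, DUSP5, DUSP16 and TGFA did (1.64 to 1.68). The family then had 1 higher call, and 6 without control replicate 2.

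Secreted factors that recruit neutrophils were higher in LA. Of 11 chemokine genes tested 5 were higher and 2 lower, against 9.57% and 9.94% of all genes. The 5 higher ones, CXCL1, CXCL2, CXCL3, CXCL5 and CXCL8, are all ligands of the receptor CXCR2. All 5 held and sit together in the chemokine cluster of chromosome 4. CXCL5, the most abundant, had 142 and 284 CPM in control and 868 and 1892 in LA (log2 fold change 2.7, standard error 0.498, adjusted p = 0.00141). CXCL8 (interleukin 8) had 31.9 and 67.7 CPM in control and 105 and 235 in LA (1.77, 0.463, 0.0101). CXCL1 had 94.6 and 88.2 CPM in control and 146 and 405 in LA, and CXCL2 and CXCL3 had log2 fold changes of 1.43 and 1.44. Chemokine transcripts are short, so the median over the 11 genes was 0.90 as a log2 fold change and 2.19 relative to genes of like length, where the same medians over all genes were 0.04 and 0.0048. The 5 higher calls became 1 without control replicate 1, 2 without LA replicate 1 and 0 without LA replicate 2, where the median log2 fold change of the list was 0.36.

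The 2 lower chemokines behaved less firmly. CCL5, a T cell attractant, had 19.6 and 10.9 CPM in control and 0.481 and 3.67 in LA (log2 fold change -2.86, adjusted p = 0.00465) and did not hold. CX3CL1 had only 32 and 12 counts in control and 1 and 6 in LA and held with the longest transcript alone.

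Among 14 interleukin and colony-stimulating factor genes, 3 were higher and 1 lower, against 9.57% and 9.94% of all genes, and the 3 higher ones held. IL11, a cytokine of the gp130 family, had 3.31 and 2.30 CPM in control and 12.6 and 20.7 in LA (log2 fold change 2.56, standard error 0.520, adjusted p = 0.00241). IL6, of the same family, was low throughout, with 7 and 1 counts in control and 30 and 75 in LA (3.53, 0.906, 0.00927). CXCL8 is counted in this list too, and IL32 was lower without holding (-1.48). No gene of this list was called without LA replicate 2. Without LA replicate 2, CXCL5, CXCL8, IL6 and IL11 all lost their calls (1.09 to 2.85). Without control replicate 1, CXCL8 lost its call (1.31), without control replicate 2, IL6 did (2.63), and the lower chemokines CCL5 and CX3CL1 lost theirs without LA replicate 1 (-2.06 and -2.07) or control replicate 1 (-2.41 and -1.85).

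Promoters of the secreted factors are printed because each holds a motif of AP-1, NF-kB or TEAD factors, known regulators of such genes, and that of CTGF is added. They come from RefSeq on GRCh38.p14, run 5′ to 3′ along the gene and end at the base before the annotated start. Capitals in the first pair mark the AP-1 motif (TGACTCA or TGAGTCA, which are each other's reverse complement), bound by FOS and JUN proteins.
CXCL8 (chr4:73740419-73740568, plus strand): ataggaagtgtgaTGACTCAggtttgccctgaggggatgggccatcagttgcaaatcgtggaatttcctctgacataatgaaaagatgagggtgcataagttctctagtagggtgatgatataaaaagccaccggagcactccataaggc
IL11 (chr19:55370464-55370613, minus strand): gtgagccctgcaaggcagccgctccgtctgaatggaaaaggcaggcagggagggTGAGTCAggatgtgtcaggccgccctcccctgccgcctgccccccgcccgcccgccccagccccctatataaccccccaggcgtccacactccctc
Capitals in the second pair mark matches to the NF-kB motif, on either strand, with a pair of overlapping matches in CXCL5.
CXCL5 (chr4:73998678-73998827, minus strand): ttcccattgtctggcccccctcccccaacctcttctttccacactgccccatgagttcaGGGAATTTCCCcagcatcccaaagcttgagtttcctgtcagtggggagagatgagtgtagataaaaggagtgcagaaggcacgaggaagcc
IL6 (chr7:22727050-22727199, plus strand): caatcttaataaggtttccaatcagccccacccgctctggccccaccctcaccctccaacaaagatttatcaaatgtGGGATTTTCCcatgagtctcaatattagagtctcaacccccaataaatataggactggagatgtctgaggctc
Capitals in the CTGF promoter mark GGAATG, the core read by TEAD factors, which occurs 3 times on this strand.
CTGF (chr6:131951373-131951622, minus strand): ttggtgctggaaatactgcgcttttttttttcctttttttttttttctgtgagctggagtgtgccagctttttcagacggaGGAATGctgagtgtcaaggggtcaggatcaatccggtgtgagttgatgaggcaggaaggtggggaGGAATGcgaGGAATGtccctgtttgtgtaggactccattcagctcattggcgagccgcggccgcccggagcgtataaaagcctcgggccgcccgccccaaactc

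Each motif was searched on both strands over 300 bases, from 250 before the start to 50 after it, in the 11206 tested genes that matched a RefSeq promoter. Of these, 358 (3.20%) had an AP-1 match, 734 (6.55%) an NF-kB match and 1225 (10.9%) a TEAD match. Among the 245 higher genes that held and had a promoter, AP-1 matches were in 15 (6.12%), NF-kB matches in 25 (10.2%) and TEAD matches in 28 (11.4%). Among the 225 lower genes that held, they were in 5 (2.22%), 13 (5.78%) and 21 (9.33%). Of the 7 chemokine promoters, 5 held an NF-kB match, and of the 8 interleukin promoters, 4 held an AP-1 match and 4 an NF-kB match. These shares are descriptions of sequence, and no binding was measured.

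**Figure D4:**
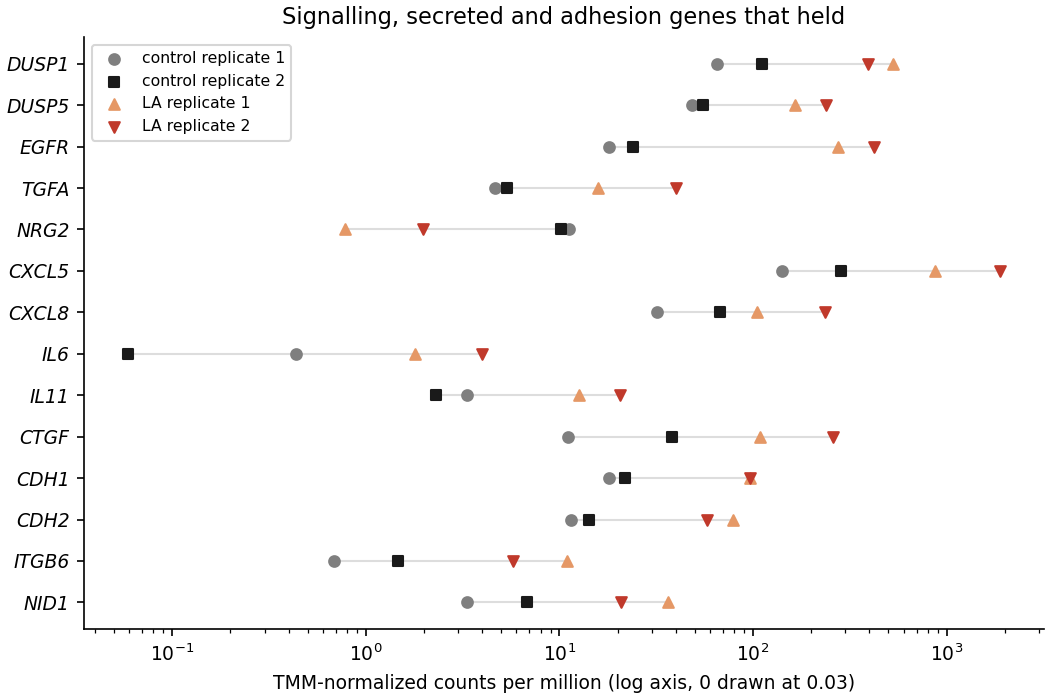
CPM after TMM normalization (x axis, log scale) of signaling, secreted and adhesion genes that held against length, 1 point per library. LA points lie above control points for each gene except NRG2, for which control values of 11.2 and 10.2 stand against 0.782 and 1.97 in LA.

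Cadherins of both the epithelial and the mesenchymal kind were higher. CDH1, the epithelial E-cadherin, had 17.9 and 21.9 CPM in control and 96.9 and 96.7 in LA (log2 fold change 2.28, standard error 0.411, adjusted p = 0.00122). CDH2, the mesenchymal N-cadherin, had 11.5 and 14.2 CPM in control and 78.7 and 57.9 in LA (2.41, 0.431, 0.00116). CDH19, a type II cadherin of neural crest lineages, had 0.438 and 0.825 CPM in control and 6.68 and 8.95 in LA (3.61, 0.659, 0.00135). These 3 held and stayed called whichever library was left out. Of 10 cadherins tested 4 were higher and none was lower, against 9.57% and 9.94% of all genes, and the fourth, CDH17, did not hold.

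Basement membrane genes were often higher, but few of them held. Of 12 laminin and nidogen genes, 7 were higher, against 9.57% of all genes, with a median of 1.3 on the log2 scale. Only NID1 and NID2, the linkers of laminin and collagen IV networks, held. NID2 had 1.81 and 3.18 CPM in control and 30.6 and 112 in LA, where replicate 2 was more than 3 times replicate 1 (log2 fold change 4.83, adjusted p = 1.94e-05). NID1 had 3.31 and 6.77 CPM in control and 36.2 and 20.9 in LA (2.50, adjusted p = 0.00211). For the laminin chains LAMA3, LAMA4, LAMB1 and LAMC1 the calls (1.19 to 2.31) did not hold, and the length-relative median of the family was 0.48. The 7 higher calls became 3 without control replicate 1, 1 without LA replicate 1 and 2 without LA replicate 2.

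Of 23 collagens, 8 were higher and 2 lower, against 9.57% and 9.94% of all genes, with 2 and 1 that held. COL12A1, a fibril-associated collagen, had 8.50 and 5.77 CPM in control and 27.8 and 85.7 in LA (2.99, adjusted p = 0.000884). COL26A1 moved the other way, from 5.63 and 6.12 CPM to 0.120 and 1.23 (-3.09, adjusted p = 0.00734). COL10A1 had 1 and 0 counts in control and 11 and 28 in LA. Among 22 integrins 6 were higher and 2 lower, and ITGB6 (higher) and ITGAE and ITGA2B (lower) held, where 2.42% and 2.01% of all genes did. ITGB6 encodes the beta chain of the epithelial integrin that activates latent TGF-beta, and had 0.688 and 1.47 CPM in control and 11 and 5.75 in LA (2.94, adjusted p = 0.00328). ITGAE, the partner chain of the E-cadherin receptor of T cells, had 118 and 55.8 CPM in control and 23.5 and 23.6 in LA (-1.89, adjusted p = 0.00485). No integrin was called lower without LA replicate 1 or without LA replicate 2, so that ITGAE and ITGA2B lost their calls, and the higher ones became 2 in both cases and 1 without control replicate 1. Higher collagens became 1 without LA replicate 1 and 0 without LA replicate 2.

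In the growth factor and protease lists higher calls were no rarer than over all genes, and lower calls were rarer. Over all genes 9.57% were called higher and 9.94% lower, and 2.42% and 2.01% held. Of 27 TGF-beta and BMP ligands and receptors 5 were higher and 1 lower, with 2 and 1 that held, and of 20 Wnt ligands and Frizzled receptors 2 were higher and none lower, with 1 that held. Of 30 metalloproteinases, ADAM and ADAMTS proteases 5 were higher and 2 lower, with 1 and 1 that held, and log2 fold changes were positive for 15 and negative for 15. TGFB2 had 12.6 and 25.1 CPM in control and 56.8 and 100.3 in LA, and LTBP2, a latent TGF-beta binding protein family member of microfibrils, had 9.57 and 10.7 in control and 42.0 and 82.1 in LA (log2 fold changes 2.06 and 2.62, adjusted p = 0.00353 and 0.00104). WNT5A, a non-canonical Wnt ligand, had 2.56 and 3.59 CPM in control and 15.2 and 21.4 in LA (2.57, adjusted p = 0.00200). The matrix proteases parted, with MMP24 at 20.0 and 38.8 CPM in control and 81.5 and 186 in LA, and MMP7, an epithelial matrilysin, at 66.2 and 76.3 in control and 15.3 and 14.5 in LA (2.19 and -2.26). TGFB2, LTBP2, WNT5A, MMP24 and MMP7 all held. Without LA replicate 1, COL26A1, ITGB6, MMP7 and NID1 lost their calls (-2.31 to 2.39), and without LA replicate 2, COL12A1, LTBP2, MMP24, MMP7, TGFB2 and WNT5A did (-2.21 to 2.30). The TGF-beta and BMP, Wnt and protease lists had 0 higher calls without LA replicate 2 and 2, 1 and 1 without LA replicate 1.

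UDP glucuronosyltransferases, which couple glucuronic acid to bilirubin, steroids and drugs, had a median log2 fold change of 3.72 over 8 genes, and 4 of the 8, all of the UGT1A locus, were higher. The median was 1.96 without control replicate 1 and 6.77 without control replicate 2, where 4 and 5 were higher. UGT1A9 (chr2:234580544-234681946) had 0.688 and 1.53 CPM in control and 88.6 and 72.3 in LA (log2 fold change 6.17, standard error 0.548, adjusted p = 1.31e-07). UGT1A7 had 0.125 and 2 CPM in control and 33.7 and 16.9 in LA (4.55, 0.711, 0.000370). UGT1A1 had 0 and 5 counts in control and 158 and 77 in LA (5.43, 0.906, 0.000661), and UGT1A6 had a log2 fold change of 4.54. All 4 held, while UGT2B10, UGT2B11 and UGT2B15 were not called. UGT1A genes differ in their first exon and share the others, so the 4 calls are not independent and reads of 1 member can be split among the rest.

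NRF2 targets, which protect against oxidative and electrophilic stress, had more lower than higher calls. Of 41 tested 2 were higher and 11 lower, against 9.57% and 9.94% of all genes, with a median of -0.39 on the log2 scale. Of the lower ones, 3 held. ALDH3A1, an aldehyde dehydrogenase, had 6402 and 3538 CPM in control and 1298 and 1042 in LA (log2 fold change -2.09, standard error 0.474, adjusted p = 0.00439). NR0B1, an orphan nuclear receptor, had 126 and 94.6 CPM in control and 30.0 and 18.1 in LA (-2.20, 0.424, 0.00182), and PIR, an iron-binding protein, had 17.3 and 9.54 in control and 2.77 and 1.86 in LA (-2.53, 0.546, 0.00322). NQO1, the reference gene of this response, had 3296 and 2787 CPM in control and 1408 and 1261 in LA and narrowly missed the threshold (-1.19, adjusted p = 0.0579). The cystine transporter SLC7A11 moved the other way (1.69) without holding, and GCLM and TXNRD1 had 0.45 and 0.38. The length-relative median of the 41 was -0.12. The lower calls became 6 without control replicate 1, 3 without LA replicate 1 and 0 without LA replicate 2. Of the 28 with a promoter, 8 held an antioxidant response element (TGACNNNGC on either strand), against 15.2% of all promoters.

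All 13 glutathione S-transferases had a negative log2 fold change, 4 were called lower, and none held with both lengths. None was called without either LA library, and 6 were without control replicate 2. The family median was -0.90 as a log2 fold change. Relative to genes of like length it was -0.90 by the longest and -0.07 by the canonical transcript, so the 2 lengths disagree. By the longest transcript 2 of the 4 held, and with length and GC content in the curve 5 genes were called lower. GSTP1, the main lung form, had 1919 and 1086 CPM in control and 339.9 and 309 in LA (-2.21) with a length-relative difference of -1.35 by the longest and -0.69 by the canonical transcript. Without the length comparison 7 of the 13 had an unadjusted p under 0.05 in the quasi-likelihood test, with it 5 did, and DESeq2 kept 4 with the longest transcript.

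Genes of lipid uptake and stress gave single changes that held. VLDLR, a lipoprotein receptor, had 4.06 and 11.4 CPM in control and 51.0 and 44.7 in LA (log2 fold change 2.63, standard error 0.490, adjusted p = 0.00144), and ANGPTL4, an inhibitor of lipoprotein lipase, had 86.7 and 62.3 in control and 13.7 and 9.48 in LA (-2.68, 0.439, 0.000590). ATF3, a stress-induced transcription factor, had 3.25 and 2.53 CPM in control and 17.0 and 8.73 in LA (2.15, 0.537, 0.00775). VLDLR stayed called whichever library was left out. Without LA replicate 1, ALDH3A1, ATF3, GAPDH, GSTO1, GSTP1 and GSTZ1 were no longer called (-2.40 to 1.58), and without LA replicate 2, ALDH3A1, ANGPTL4, GAPDH, GSTO1, GSTP1, GSTZ1, NR0B1 and PIR were not (-2.43 to -1.17).

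Secreted proteins typical of liver, among them complement and coagulation factors, were higher in 6 of 23 and lower in 2, against 9.57% and 9.94% of all genes. C3 had 68.8 and 75.6 CPM in control and 189 and 350.1 in LA (1.90, adjusted p = 0.00415), and CFI and VTN held with it (3.49 and 1.41). The higher calls became 2 without control replicate 1, 1 without LA replicate 1 and 2 without LA replicate 2. FGB, the fibrinogen beta chain, had 22 and 36.3 CPM in control and 184 and 23.6 in LA, so that its call (1.83, adjusted p = 0.0295) rested on LA replicate 1, without which the value was -0.32. Without LA replicate 2, C3 lost its call (1.39), and CFI lost its own without control replicate 1 (2.51) or LA replicate 1 (2.44).

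Some genes were read in 1 group only. ADGRL2 (chr1:81771832-82459616), an adhesion G-protein-coupled receptor, had 153 and 341 counts in control and 0 and 0 in LA, at least 87.1-fold lower when LA is set at 3 counts per library, and it stayed called whichever library was left out. The Eph receptor gene EPHA7 had 13 and 14 counts in control and 0 and 0 in LA (at least 4.81-fold lower), and FXYD6, a regulator of the sodium pump, had 21 and 16 in control and 0 and 0 in LA (at least 6.63-fold lower). BMP7, a bone morphogenetic protein, had 15 and 19 counts in control and 0 and 1 in LA. Cancer-testis antigens of the X chromosome were lower too, with MAGEA6 at 355 and 500 counts in control and 0 and 2 in LA and MAGEA3 at 15 and 65 in control and 0 and 0 in LA. MAGEA3 and MAGEA6 are nearly identical, so reads cannot be assigned between them with certainty.

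Other genes were at 0 in control. FGF5, a fibroblast growth factor, had 0 and 0 counts in control and 12 and 34 in LA (at least 6.95-fold higher). EVI2A, which lies within NF1 and has exons that overlap it, had 0 and 0 counts in control and 20 and 23 in LA (at least 6.67-fold higher). The clustered protocadherin PCDHGA4 had 0 and 0 counts in control and 12 and 13 in LA (at least 3.88-fold higher), PCDHGA2 had 0 and 2 in control and 26 and 45 in LA, and PCDHGB3 had 0 and 1 in control and 21 and 20 in LA. Protocadherin gamma genes share their last exons, as the UGT1A genes do, and of 24 protocadherins tested 5 were higher and 1 was lower, where the higher calls became 1 without control replicate 1 or either LA library and 9 without control replicate 2. Over all genes 9.57% were called higher and 9.94% lower. ZNF91, a zinc finger repressor of retroelements, had 0 and 2 counts in control and 47 and 37 in LA. EPHA7 and PCDHGB3 were not called when either LA library was left out (-6.84 and -6.77, 4.83 and 5.08), PCDHGA2 not without control replicate 1 (3.97) or LA replicate 2 (4.54), PCDHGB3 not without control replicate 1 (4.12), and PCDHGA4 not when either control library was left out (6.63 and 6.59). These are fitted log2 fold changes, which depend on the prior count where a group is at 0.

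Ribosomal protein genes were mostly lower. Of 83 cytosolic ribosomal protein genes tested 77 were lower and none higher, with a median log2 fold change of -2.09. Summed over the family they made up 163600 and 92020 CPM in control and 34510 and 27430 in LA, so that control replicate 1 lay well above control replicate 2. RPL36 had 806 and 229.9 CPM in control and 67.3 and 73.1 in LA (log2 fold change -2.88, standard error 0.509, adjusted p = 0.00109). RPS21 had 1545 and 614 CPM in control and 197 and 155 in LA (-2.62, 0.484, 0.00141). Relative to genes of like length the family median was -1.35 by the longest and -0.94 by the canonical transcript, and 34 of the 83 held. With the longest transcript alone 51 held, and DESeq2 kept 67. With length and GC content in the curve 72 were called lower. Before the length comparison the count of lower ribosomal genes was 78 with DESeq2 size factors and 75 with library size alone. It fell to 11 of 84 without LA replicate 1 and to 1 of 84 without LA replicate 2, with medians of -2.33 and -1.88. The 6 not called were RPL15, RPL17, RPL26L1, RPL36A, RPL7L1 and RPS10.

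Other short-gene machines kept less of their change. Respiratory chain subunits were lower in 62 of 80, with a median of -1.68 on the log2 scale and 9 that held, and mitochondrial ribosomal proteins in 47 of 77, with -1.28 and 7. The Sm and LSm proteins of the spliceosome were lower in 16 of 24 (-1.59, 4 held) and proteasome subunits in 18 of 37 (-1.11, 3 held). Relative to genes of like length the medians were -0.74, -0.53, -0.69 and -0.62 by the longest transcript. By the canonical transcript they were -0.57, -0.34, -0.66 and -0.41. With the longest transcript alone 22, 14, 5 and 5 held, and DESeq2 kept 35, 22, 8 and 11. With length and GC content in the curve 54, 34, 15 and 16 were called lower. NDUFA3, a complex I subunit, had 122 and 41.9 CPM in control and 11 and 12.1 in LA (-2.82, adjusted p = 0.000884), and LSM7 had 117 and 35.4 in control and 8.30 and 12.4 in LA (-2.88, adjusted p = 0.00111). MRPL23 had 411 and 143 CPM in control and 45.2 and 39.8 in LA (-2.71, adjusted p = 0.00109). S100 genes, which encode small calcium-binding proteins, were lower in 5 of 11 with a median of -1.53, and -0.12 once compared by canonical length, with none that held. Among these 11 genes edgeR's quasi-likelihood test gave 8 an unadjusted p under 0.05 and, with the length offset, 2, and DESeq2 kept 1 with the longest transcript.

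Most of these calls were lost without either LA library, in fits that take the spread from the control pair. The lower calls were 2 and 2 for the respiratory chain, 3 and 0 for the mitochondrial ribosome, 1 and 1 for the Sm and LSm proteins, 0 and 0 for the proteasome and 0 and 0 for the S100 genes without LA replicate 1 and without LA replicate 2, where the medians stayed between -1.81 and -1.04. The mitochondrial ribosome gave 28 without control replicate 1 and 20 with library size alone. Of 15 short-gene family members tracked, 12 were no longer called without LA replicate 2 (-2.74 to -1.87) and 9 without LA replicate 1 (-2.51 to -1.69), and only RPL36, NDUFA3 and LSM7 stayed called under every omission. Without control replicate 1, S100A4 and S100A6 were lost (-1.18 and -1.25) and all 15 values were nearer to 0, at -1.92 to -1.18, against -3.61 to -2.43 without control replicate 2.

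**Figure D5:**
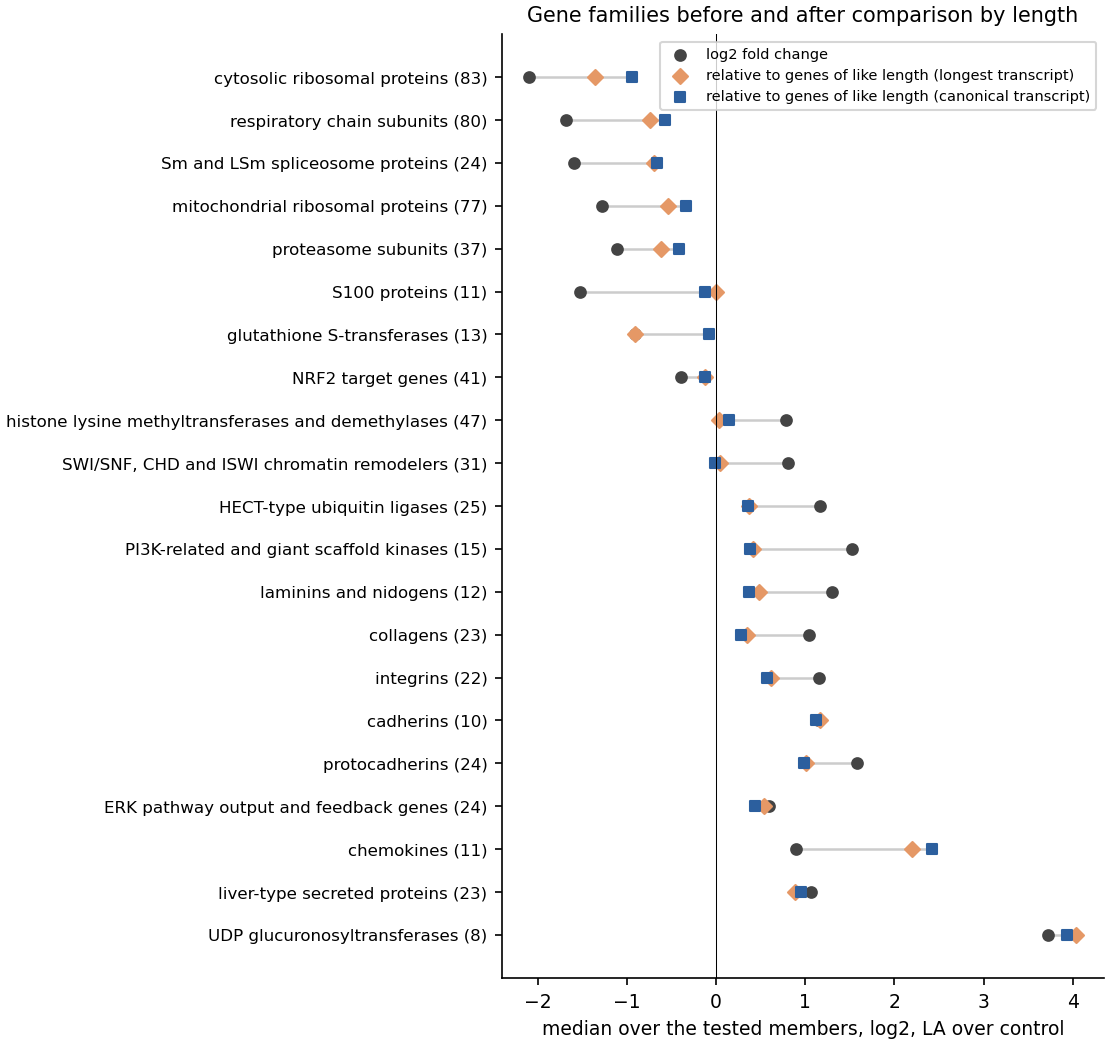
Median over the tested members of gene families (number in parentheses) of the log2 fold change of LA over control (black) and of the difference from genes of like length by the longest (orange) and the canonical transcript (blue), on a log2 axis. Ribosomal proteins stay lowest (-2.09, -1.35 and -0.94), chromatin families move to about 0, and UDP glucuronosyltransferases and chemokines are highest once compared by length.

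Families of long genes showed the reverse. PI3K-related and giant scaffold kinases were higher in 12 of 15 (median log2 fold change 1.52), HECT-type ubiquitin ligases in 12 of 25 (1.17), histone lysine methyltransferases and demethylases in 17 of 47 (0.78) and chromatin remodelers in 9 of 31 (0.80). Relative to genes of like length (canonical transcript) the medians were 0.38, 0.36, 0.14 and -0.01. ASH1L, a histone methyltransferase with a transcript of 12184 bp, had 23.9 and 26.7 CPM in control and 112 and 98.4 in LA (log2 fold change 2.05, adjusted p = 0.00202, length-relative 0.85). ATM, the DNA damage kinase, had 10.4 and 25.9 CPM in control and 73.8 and 67.1 in LA (1.95, adjusted p = 0.00501, length-relative 0.79). Neither held, and the only member of these families that did was HERC3, a HECT ligase (2.46, length-relative 2.18).

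The counts of 0 among long-gene families that held come from edgeR's quasi-likelihood test with the length offset. At an unadjusted p under 0.05 the same fit had 7 higher and 2 lower among the histone enzymes, 2 and 2 among the remodelers and 2 and 0 among the giant kinases. With DESeq2, 1 higher and 1 lower, 1 and 0, and 1 and 0 held. Without LA replicate 2 none of 11 long-gene family members tracked was called even before the length comparison (1.51 to 2.28), and without LA replicate 1, 4 of them were. The 4 families had 2, 1, 1 and 0 higher calls (giant kinases, HECT ligases, histone enzymes and remodelers) without LA replicate 1 and 0 each without LA replicate 2, and 5 HECT ligases and 7 histone enzymes without control replicate 1. Without control replicate 1, KDM7A was lost (1.5).

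Other families gave few calls that held, where 9.57% of all genes were called higher and 9.94% lower. Interferon-stimulated genes were higher in 9 of 36 and lower in 2 (2 higher without control replicate 1 or LA replicate 1, and 0 without LA replicate 2), among them OAS2, an antiviral sensor, with 6 and 10 counts in control and 26 and 96 in LA. None held with both lengths, although DESeq2 kept 3 higher and 1 lower with the longest transcript, and 13 higher and 2 lower had an unadjusted p under 0.05 with the offset. Glycolysis genes were lower in 3 of 22 (9.94% over all genes) and higher in none, with 0 lower calls without either LA library and 7 without control replicate 2, and none of the 3 (GAPDH, TPI1 and ALDOA) held, where 0 higher and 7 lower had an unadjusted p under 0.05 with the offset and DESeq2 kept 3 lower. GAPDH, often used as a reference gene, had 12060 and 10470 CPM in control and 4091 and 3498 in LA (-1.57, adjusted p = 0.0204).

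Calls that did not hold were made on both sides. ERN1, the endoplasmic reticulum stress sensor IRE1, had 1.75 and 1.71 CPM in control and 7.94 and 13.2 in LA (2.61, length-relative 1.72), and CASC5, a kinetochore scaffold, had 2.50 and 12.3 in control and 54.6 and 29.1 in LA (2.50, 1.49). SVEP1, CACNA1D and AKAP6 had log2 fold changes of 2.50, 2.49 and 2.46 on transcripts of 12205, 9429 and 14984 bp. On the lower side TMSB10, a small actin-binding protein with a transcript of 461 bp, had 3940 and 944 CPM in control and 329.7 and 454 in LA (-2.64, length-relative -1.59). CMC4, TMEM256 and LINC00685 had -2.60, -2.59 and -2.64. For LINC00685 the value rested on control replicate 1, with 360 and 42 counts in the control libraries, and was -0.34 without it. CCL5, CMC4, TMEM256, TMSB10, CASC5, CACNA1D and LINC00685 lost their calls without LA replicate 1 (-2.47 to 2.06), and AKAP6, CMC4 and ERN1 without LA replicate 2 (-2.75 to 2.20).

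Long noncoding RNAs also held in both directions. THRIL, an RNA first described in TNF induction, had 0.750 and 4 CPM in control and 32.7 and 20.7 in LA (log2 fold change 3.48, adjusted p = 0.000884), though its exons overlap BRI3BP. CCDC144B had 1.00 and 0.471 CPM in control and 14.1 and 10.1 in LA (4.03, adjusted p = 0.000319), and AADACP1 had a log2 fold change of 2.29. SNHG19 and SNHG5, hosts of small nucleolar RNAs, fell, from 74.3 and 16.7 CPM to 3.07 and 3.19 and from 682 and 290.5 to 76.8 and 89.3 (-3.86 and -2.55, adjusted p = 0.000246 and 0.00129). TTC28-AS1 had -1.79. AADACP1, SNHG5 and TTC28-AS1 lost their calls without LA replicate 1 (-2.46 to 2.04), SNHG5 and TTC28-AS1 without LA replicate 2 (-2.65 and -1.40), and TTC28-AS1 without control replicate 1 (-1.59).

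Because the sgScr libraries carry the LA label as well, their levels are given for some of the leading genes, on CPM scaled over all 9 libraries and without a test. These genes were chosen after their values were seen. For one group of genes sgScr lay near LA. PRKAR2A had 0.711 and 3.13 CPM in control, 35.5 and 30.9 in LA and 35.3, 37.1 and 39.7 in sgScr. THRIL had 0.775 and 4.01 in control, 33.4 and 21.7 in LA and 41.0, 39.9 and 43.1 in sgScr, and MGMT, which was lower, had 39.8 and 14.7 in control, 2.52 and 2.07 in LA and 3.14, 2.92 and 3.50 in sgScr. MSMP belongs here too, at 10.7, 14.7 and 12.2 CPM in sgScr.

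For a second group sgScr lay between control and LA. EGFR had 18.6 and 24 CPM in control, 279.8 and 445 in LA and 184, 186 and 196 in sgScr. HIF1A had 6.91 and 152 in control, 988 and 703 in LA and 325, 329.7 and 315 in sgScr, and CDH1 had 18.5 and 21.9 in control, 98.9 and 102 in LA and 70.8, 69.2 and 68.8 in sgScr. DUSP1 was at 241, 242 and 241 CPM in sgScr against 541 and 412 in LA, and NCR3LG1 at 5.85, 6.22 and 5.57 against 13.6 and 14.2. CXCL5 had 147 and 285 in control, 886 and 1986 in LA and 333, 331 and 327 in sgScr. These genes are grouped by this order, so the lack of overlap between the 3 groups is no separate result.

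For another set of genes sgScr did not share the level of LA, although the label names the same fusion. UGT1A9 had 0.711 and 1.53 CPM in control, 90.4 and 75.9 in LA and 2.85, 1.90 and 2.64 in sgScr. PTPRD had 2.20 and 0.885 in control, 26.1 and 36.3 in LA and 0.999, 0.680 and 0.919 in sgScr, and CDH2 had 11.9 and 14.3 in control, 80.3 and 60.8 in LA and 5.57, 5.44 and 6.37 in sgScr. GRIK2 had 1, 0 and 0 counts in the sgScr libraries, where LA had 360 and 171. ANKRD30A, at 73 and 53.9 CPM in LA, had 7.52, 8.6 and 6.89 in sgScr and 4.59 and 4.66 in control. NID2, at 31.25 and 117 in LA, had 4.52, 4.665 and 4.65 in sgScr and 1.87 and 3.185 in control. IL11, at 12.8 and 21.7 in LA, had 3.71, 3.21 and 4.02 in sgScr and 3.42 and 2.30 in control. CXCL8, at 107 and 247 in LA, had 49.9, 42.8 and 39.6 in sgScr and 33.0 and 67.8 in control. ADGRL2, at 0 in LA, was at 9.61, 9.57 and 9.07 CPM in sgScr against 9.88 and 20.1 in control, and CEACAM6, at 0 and 2.96 CPM in LA, reached 121, 125 and 125 in sgScr, above the 19.6 and 42.0 in control. The same libraries carry the Y-linked reads that LA lacks, so for these genes the LA values describe the 2 LA libraries and not all cells labelled with the fusion. Batch, clone and the second guide cannot be told apart in this comparison.

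By chromosome the length-relative differences were not level. Chromosome 19 had the lowest median, -0.35, with 83 of its 1003 genes held as lower by the longest transcript (8.28%, against 3.52% of all genes). Chromosome 4 had the highest, 0.26, with 34 of 511 genes held as higher (6.65%, against 3%). The control libraries differed from each other in the same places, with a median log2 CPM difference of replicate 1 minus replicate 2 of 0.58 on chromosome 19 and -0.46 on chromosome 4. The part of this spread between control libraries in the chromosome medians was not tested.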

How the data were processed

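Polyadenylated RNA of 2 parental A549 and 2 LA samples was sequenced by the authors as paired reads from stranded libraries. Per the submitters’ processing notes in the labels and the study's methods, reads were aligned with STAR (version 2.7.10b) to hg19 and compared with DESeq2 (version 1.26.0). The authors deposited raw counts per gene, which were used as deposited. The counting program, its gene annotation and its strand setting are not given in the sources used here, so reads of overlapping genes cannot be told apart.

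Genes were filtered with filterByExpr, normalized by TMM and tested with edgeR's quasi-likelihood test (edgeR 4.0.16, R 4.3.3) on the 4 libraries alone, with 2-sided p-values adjusted by the Benjamini-Hochberg method over all genes tested and a threshold of 0.05. The fit was run on simulated data with and without a length trend between the groups. Those data had no length trend between libraries of a group, unlike the control pair here, so they do not test that case. Transcript lengths came from GENCODE 44 on GRCh37, matched for 24652 of the counted genes by symbol, older symbol or gene number. A further 28 names had been turned into dates and held at most 0.238% of a library's counts. In each library a loess curve (span 0.5) of log2 CPM on log2 length served as the offset of a second fit. Length-relative differences used the 200 genes nearest in length, and folds against a group at 0 used a floor of 3 counts per library. Such floors cover counting error only.

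The genes furthest from genes of like length were named by a rule. They had to be protein coding, hold against length, have a mean of at least 100 counts and not overlap between groups, and not be Y-linked or already labelled or described for these data. The 12 highest and 12 lowest were taken. Up to 3 called members per list with the largest change, 5 calls in each direction that did not hold and 3 long noncoding RNAs in each direction were named likewise, and further members were named for their known roles after their values were seen. The lists and the rule were chosen with earlier results of these data known. Alternatives were DESeq2 1.42.0, other scalings and filters, all 9 libraries in 1 fit, the replicate number as a block, the study's threshold, other length measures and leaving out each library. Figures were drawn with matplotlib 3.10.9. The 5 libraries with a second guide entered no test reported as main. A few genes are not reported here.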

Additional observations from a re-analysis of the deposited data

How the results depend on the processing

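The counts of 1380 higher and 1434 lower genes, and of 424 higher and 498 lower genes that held by the longest transcript, depended most on single libraries. Leaving out 1 library gave 185 to 2383 higher and 68 to 2695 lower genes, and 91 to 1195 and 36 to 1588 that held. In these fits the lone library of a group is assumed to vary like the pair of the other group. Of the 628 genes that held with both lengths, 425 were also called in the same direction without control replicate 1, 587 without control replicate 2, 272 without LA replicate 1 and 177 without LA replicate 2. DESeq2 raised the lower genes that held to 787. Library size alone gave 680 lower genes and 322 that held, and dropping the filter on low counts gave 671 higher and 962 lower genes that held. With all 9 libraries in 1 fit there were 3552 higher and 3247 lower genes, and 1738 and 2054 that held. The study's threshold (unadjusted p under 0.05 and an absolute log2 fold change over 0.5) gave 2505 and 2472, and 1206 and 1394 that held. By the canonical transcript 311 lower genes held, and 285 by both lengths. The cause of these shifts was not tested. DESeq2 size factors, a mean of at least 50 counts, the union of exons and GC content moved no count by more than 1.5 times. Of 182 named genes only FGB changed sign, at -0.32 without LA replicate 1 and 2.67 without LA replicate 2.

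With the replicate block, the counts were 791 higher and 728 lower, with 232 lower genes that held, and 509 of the 628 genes stayed called. Lower calls became 19 for mitochondrial ribosomal proteins and 10 for proteasome subunits. Higher calls became 2 for chemokines, 3 for laminins and nidogens, 3 for TGF-beta and BMP genes, 1 for Wnt genes, 2 for the proteases, 3 for liver-type secreted proteins, 4 for potassium channels, 4 for HECT ligases, 6 for histone enzymes and 7 for giant kinases. The numbers were not found to pair the samples, since the differences of replicate 1 and replicate 2 within LA and within control were negatively related across genes (Pearson -0.258). A crossed pairing, added after seeing the data, gave 1977 higher and 1901 lower genes, of which 755 and 848 held.

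With 2 libraries a group and a spread between replicates of 0.329 (edgeR's common coefficient of variation), genes near the threshold could gain or lose a call with 1 library. ALK and LOC388942 were below what this depth can test.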
